A study of Mus musculus with 2 samples.

Results

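The genes described are 9 mouse orthologs of genes at human Alzheimer's disease risk loci, in cortical microglia: Bin1, Cd33, Picalm, Ms4a6d, Abi3, Sorl1, Cd2ap, Grn and Rin3. They were taken by symbol and are 9 of the 31053 genes in the count matrices. The photoconversion group was male 5xFAD hemizygous mice on C57BL/6J that received Visudyne (5 µL) into the cisterna magna and then 5 steps of 689-nm red light through the skull, which is meant to ablate meningeal lymphatic vessels. The control group was male 5xFAD hemizygous mice on C57BL/6J that received the same volume of Visudyne without light. In both groups the first injection was given at 4 months of age and the second 3 weeks later, and tissue was taken 3 weeks after that, at a labelled age of 5.5 months. 5xFAD is a transgenic model of amyloid deposition, and both groups carry it, so no group without amyloid pathology was compared. Live single cells negative for Ly6G and positive for CD45 and CD11b were sorted from cortex, and each group is 1 library from 3 pooled mice. With 1 library per group no difference has a replicate check, so values are given with exact 95% intervals that cover counting error only, and no test was made.

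Microglia take up and digest extracellular material, amyloid included, and several of these genes act along that route. Cd33 is a sialic acid-binding receptor, and Ms4a6d is a membrane protein of the MS4A family. Bin1 bends membranes, Picalm assembles clathrin coats, Cd2ap links endocytic membranes to actin, Rin3 activates Rab5 on early endosomes, and Sorl1 sorts cargo between endosomes and the Golgi. Abi3 belongs to the complex that drives branched actin at the cell edge, and Grn encodes progranulin, a secreted and lysosomal protein. In amyloid models, microglia near plaques lose homeostatic genes such as P2ry12, a purinergic receptor, and gain genes such as Cst7, a cystatin that inhibits lysosomal proteases.

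In the mm10 (GRCm38) assembly with GENCODE M21, Cd33 spans chr7:43524216-43544428 on the minus strand and Ms4a6d spans chr19:11586604-11604849 on the minus strand. Abi3 lies at chr11:95830074-95842476 (minus) and Picalm at chr7:90130213-90213465 (plus). Grn lies at chr11:102430315-102437048 (plus), Cd2ap at chr17:42792951-42876665 (minus), Rin3 at chr12:102283048-102390855 (plus) and Sorl1 at chr9:41964720-42124297 (minus). Promoter windows from RefSeq (GRCm38.p6) were available for 6 of the 9 genes: Cd33, Picalm, Sorl1, Cd2ap, Grn and Rin3. A pair on chromosome 7 is printed, because Cd33 was the gene with an entry and at least 100 UMIs that was past 1.5-fold lower in Cst7-dominant cells of both libraries, while Picalm differed by less than 1.5-fold. The Cd33 stretch is the 193 bases before a RefSeq start, at chr7:43533172-43533364 on the minus strand. The 57 bases farther out that lie in an annotated exon of Cd33 were left off. That start lies inside the span given above for Cd33, whereas the Picalm start lies at the edge of its span. The Picalm stretch is the 250 bases before the start at chr7:90129963-90130212 on the plus strand. Capitals mark GAGGAA, the core bound by the myeloid factor PU.1, and CACGTG, an E-box, each searched on both strands.
Cd33: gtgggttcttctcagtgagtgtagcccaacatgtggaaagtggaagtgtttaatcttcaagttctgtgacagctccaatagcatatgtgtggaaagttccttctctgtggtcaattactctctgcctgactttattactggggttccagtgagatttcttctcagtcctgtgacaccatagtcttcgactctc
Picalm: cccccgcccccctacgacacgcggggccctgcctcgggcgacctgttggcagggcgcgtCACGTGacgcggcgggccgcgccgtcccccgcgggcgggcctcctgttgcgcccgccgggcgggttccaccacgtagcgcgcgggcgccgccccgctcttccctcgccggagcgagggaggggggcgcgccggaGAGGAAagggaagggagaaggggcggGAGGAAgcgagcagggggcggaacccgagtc
The Picalm stretch held 2 GAGGAA matches and 1 CACGTG match. The only match in the 250 bases of Cd33 was a GAGGAA 226 bases before the start, in the part not printed. Of 32851 windows of 250 bases in the table, 23.3% held GAGGAA and 6.02% held CACGTG, so these matches are descriptions and not binding sites.

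Barcodes counted as cells when 200 or more genes were detected and no more than 10% of UMIs were mitochondrial. This left 317 cells (median 3410 UMIs) in the photoconversion library and 555 cells (median 2670 UMIs) in the control library. The kept cells held 1816177 UMIs in the photoconversion library and 2422711 UMIs in the control library, and no kept cell shared a barcode between libraries. All 10 microglia markers were detected in both libraries, at a summed 27107 CPM (UMIs per 1000000 UMIs of the same cells) in the photoconversion library and 30607 CPM in the control library. Border macrophage markers summed to 68.3 CPM in the photoconversion library, where 4 of 8 were detected, and to 122 CPM in the control library, where 7 of 8 were. Monocyte markers summed to 17.6 CPM in the photoconversion library, with 4 of 6 detected, and to 82.1 CPM in the control library, with 5 of 6 detected.

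Grn was the most abundant of the 9 genes, at 1849 CPM in the photoconversion library and 2051 CPM in the control library. Abi3 came next, at 309 CPM in the photoconversion library and 329 CPM in the control library, and Bin1 was at 274 and 324 CPM, with intervals that overlapped those of Abi3 in both libraries. Cd33 stood at 200 CPM in the photoconversion library and 177 CPM in the control library, above Picalm at 123 and 125 CPM. Ms4a6d (56.7 CPM in the photoconversion library, 76.8 CPM in the control library) and Cd2ap (49.6 and 32.6 CPM) formed the next step down, and their intervals overlapped in the photoconversion library. Rin3 and Sorl1 were sparse, with 28 and 17 UMIs in the photoconversion library and 30 and 34 UMIs in the control library. Levels are counts of tagged molecules and were not divided by gene length, so their order across genes describes UMI yield.

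**Figure D1:**
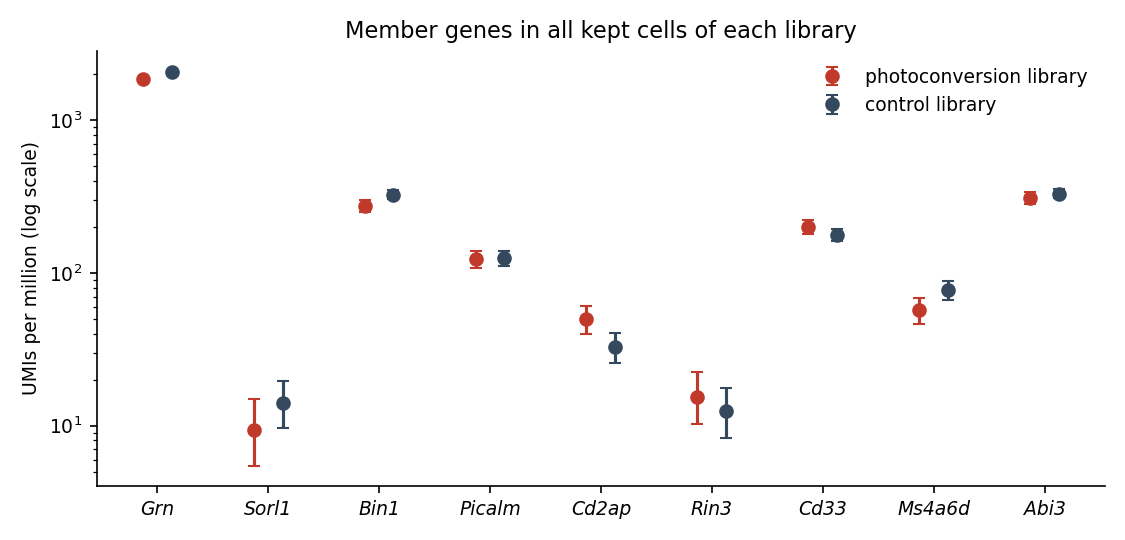
CPM of the 9 genes in all kept cells (log axis), with the photoconversion library left of the control library. Points are 1 library each and bars are exact 95% Poisson intervals for counting error. Grn lies highest, at 1849 CPM in the photoconversion library and 2051 CPM in the control library, and Rin3 and Sorl1 lie lowest.

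Cells were split by their own counts of 2 genes that are not among the 9. Cst7-dominant cells, with more Cst7 than P2ry12 UMIs, were 157 of 317 cells (49.5%) in the photoconversion library and 207 of 555 (37.3%) in the control library. P2ry12-dominant cells were 133 in the photoconversion library and 290 in the control library, and cells with equal counts (27 and 58) entered no ratio. Leaving out Cst7, 8 of 9 disease-associated markers in the photoconversion library and 7 of 9 in the control library were at least 1.5-fold higher in Cst7-dominant cells. Leaving out P2ry12, 7 of 9 microglia markers in the photoconversion library and 8 of 9 in the control library were at least 1.5-fold lower.

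Among the surface receptors, Cd33 was lower in Cst7-dominant cells of both libraries. In the photoconversion library Cd33 had 139 CPM (182 UMIs) in Cst7-dominant cells and 374 CPM (175 UMIs) in P2ry12-dominant cells, a ratio of 0.371 (0.30 to 0.460). In the control library it had 108 CPM (159 UMIs) in Cst7-dominant cells and 303 CPM (255 UMIs) in P2ry12-dominant cells, a ratio of 0.357 (0.291 to 0.437). The log2 ratios of the 2 libraries differed by 0.06, and neither interval reached 0.667, the lower bound of a 1.5-fold difference. Ms4a6d had 29.0 CPM (38 UMIs) in Cst7-dominant cells and 124 CPM (58 UMIs) in P2ry12-dominant cells of the photoconversion library, a ratio of 0.234 (0.151 to 0.358). In the control library Ms4a6d had 47.0 CPM (69 UMIs) in Cst7-dominant cells and 130 CPM (109 UMIs) in P2ry12-dominant cells, a ratio of 0.363 (0.264 to 0.495). The photoconversion value rests on 96 UMIs, below the minimum of 100 used for counts of genes, although it was the lowest ratio of the 9 genes there. Its close paralogs Ms4a6b and Ms4a6c could share reads with Ms4a6d, and how such reads were counted is not given in the sources used here. Border macrophage markers were also lower in Cst7-dominant cells, at 38.9 CPM against 150 CPM in P2ry12-dominant cells of the photoconversion library (3 and 2 of 8 detected) and at 89.3 CPM against 171 CPM in the control library (6 and 5 of 8 detected). Monocyte markers gave 6.87 CPM in Cst7-dominant against 44.9 CPM in P2ry12-dominant cells of the photoconversion library (4 and 2 of 6 detected), and 4.77 against 54.7 CPM in the control library (4 and 5 of 6 detected). In both states of both libraries the macrophage marker Lyve1 and the monocyte marker Vcan were at 0. The part of either marker list in the Ms4a6d values was not tested.

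The membrane and actin genes Bin1 and Abi3 were lower in Cst7-dominant cells by a smaller factor. Bin1, at chr18:32377230-32435737 on the plus strand of mm10, had 225 CPM in Cst7-dominant cells and 408 CPM in P2ry12-dominant cells of the photoconversion library, a ratio of 0.551 (0.458 to 0.665). In the control library Bin1 had 247 CPM in Cst7-dominant cells and 480 CPM in P2ry12-dominant cells, a ratio of 0.514 (0.445 to 0.594). Abi3 had 268 CPM in Cst7-dominant cells and 426 CPM in P2ry12-dominant cells of the photoconversion library, a ratio of 0.630 (0.528 to 0.753), and 272 against 446 CPM in the control library, a ratio of 0.609 (0.528 to 0.704). The upper bounds for Abi3 lie past 0.667, so counting error alone leaves a difference under 1.5-fold possible. Abi3 overlaps Gngt2 on the other strand over 5261 bases, and whether counting used strand is not stated in the sources used here. Gngt2 itself gave ratios of 1.10 (0.909 to 1.33) in the photoconversion library and 0.909 (0.783 to 1.06) in the control library. Picalm, the clathrin adaptor, had 115 CPM in Cst7-dominant and 148 CPM in P2ry12-dominant cells of the photoconversion library (ratio 0.776, 0.580 to 1.05), and 117 against 138 CPM in the control library (ratio 0.844, 0.663 to 1.08). Both Picalm intervals include 1.

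**Figure D2:**
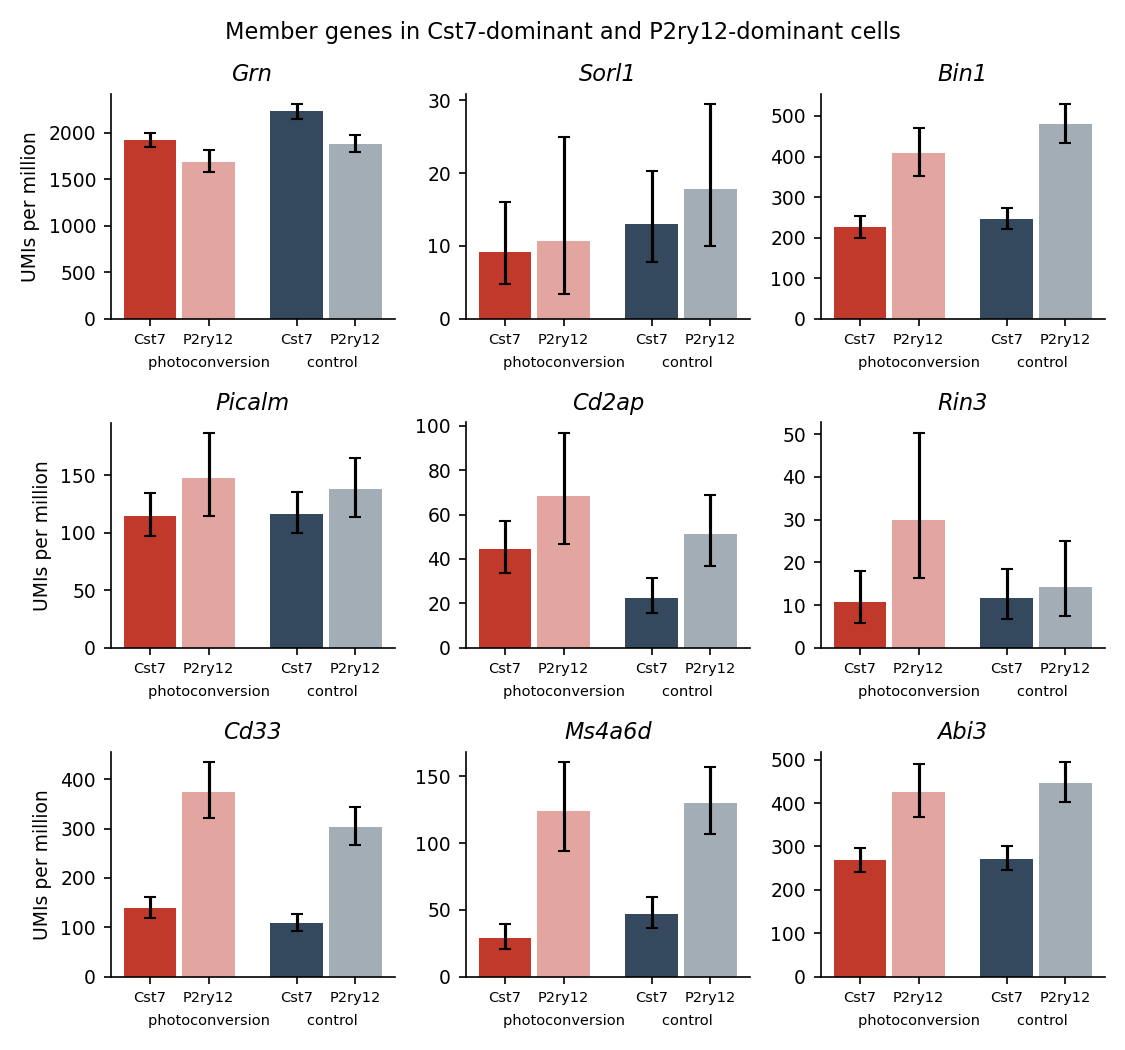
CPM of each gene (linear axis) in Cst7-dominant cells, left, and P2ry12-dominant cells, right, for each library, with exact 95% Poisson intervals. Cd33, Ms4a6d, Bin1 and Abi3 sit lower in Cst7-dominant cells of both libraries, and Grn sits slightly higher.

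Grn was the single gene of the 9 with more CPM in Cst7-dominant cells. It had 1919 CPM in Cst7-dominant cells and 1690 CPM in P2ry12-dominant cells of the photoconversion library (ratio 1.14, 1.05 to 1.23), and 2230 against 1882 CPM in the control library (ratio 1.19, 1.12 to 1.26). This order depended on how cells were weighted. When every cell was thinned to 1000 UMIs the log2 ratio was -0.09 in the photoconversion library and -0.10 in the control library, and with every cell weighted equally it was -0.32 and -0.19. Progranulin RNA therefore had no direction that held across these settings.

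The remaining endosomal genes were too sparse for a count. Cd2ap had 58 UMIs in Cst7-dominant and 32 UMIs in P2ry12-dominant cells of the photoconversion library (CPM ratio 0.647, 0.413 to 1.03), and 33 against 43 UMIs in the control library (0.440, 0.271 to 0.708). Rin3 had 14 UMIs in each state of the photoconversion library (0.357, 0.158 to 0.808), and 17 in Cst7-dominant against 12 in P2ry12-dominant cells of the control library (0.811, 0.365 to 1.86). Sorl1 had 12 against 5 UMIs in the photoconversion library and 19 against 15 UMIs in the control library, and both its intervals include 1. Apart from the control value of Cd2ap and the photoconversion value of Rin3, a difference between states was not detectable for these genes at this depth.

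In the photoconversion library 3 of the 5 genes with at least 100 UMIs were at least 1.5-fold lower in Cst7-dominant cells (Cd33, Bin1 and Abi3), where 23.5% of 1871 genes were. In the control library 4 of 6 were (Cd33, Ms4a6d, Bin1 and Abi3), where 27.6% of 2479 genes were. The same 3 of 5 genes were lower in both libraries, against 18% of 1864 genes, and none of the 5 was 1.5-fold higher in both, against 10.3%. The median log2 ratio of the 9 genes' countable members was -0.67 in the photoconversion library and -0.84 in the control library, and the median over all countable genes was -0.04 and -0.19.

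**Figure D3:**
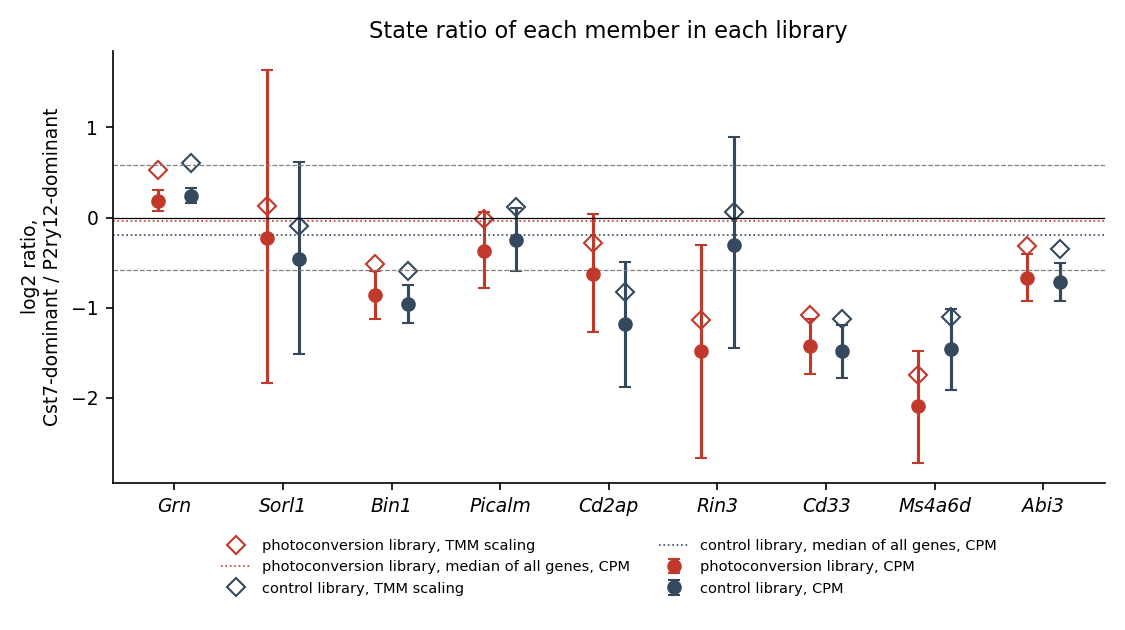
Ratio of CPM in Cst7-dominant over P2ry12-dominant cells for each gene (log axis), photoconversion library left of the control library, with exact 95% intervals for counting error and lines at 1 and at 1.5-fold in either direction. Filled points are ratios by CPM, open diamonds the same ratios scaled by the trimmed mean of M-values, and dotted lines the median of all genes by CPM. By CPM, Cd33, Ms4a6d, Bin1, Abi3 and the sparse Cd2ap lie below the lower line in both libraries and Picalm lies between the lines. The diamonds of Abi3 in both libraries and of Bin1 in the photoconversion library lie above the lower line.

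The sizes of these ratios depended on the scaling. Scaling by the trimmed mean of M-values (TMM), which leaves out genes with extreme ratios, moved every log2 ratio up by 0.35 in the photoconversion library and by 0.36 in the control library. By CPM, 15.9% of genes were higher and 23.5% lower in Cst7-dominant cells of the photoconversion library, and by TMM 34% were higher and 11.5% lower. In the control library 13.5% were higher and 27.6% lower by CPM, and 26.5% higher and 13.5% lower by TMM. On the TMM scale Cd33 stayed past 1.5-fold, at log2 ratios of -1.08 in the photoconversion library and -1.12 in the control library, as did Ms4a6d at -1.75 and -1.10. Bin1 gave -0.51 and -0.59 and Abi3 gave -0.32 and -0.35, against a limit of -0.58, and Picalm gave -0.02 and 0.12. Grn gave 0.53 in the photoconversion library and 0.61 in the control library, past 1.5-fold higher in the control library. Cst7-dominant cells were deeper than P2ry12-dominant cells, with medians of 5852 against 2739 UMIs in the photoconversion library and 4655 against 2206.5 UMIs in the control library. Their ribosomal share was 22.9% against 15.7% in the photoconversion library and 22.2% against 14.2% in the control library, and the nuclear RNA Malat1 had 7561 against 24621 CPM and 6456 against 24797 CPM. Without cells below 1000 CPM of Malat1, a choice made after seeing the data, the log2 ratios were -1.45 and -1.43 for Cd33, -2.11 and -1.46 for Ms4a6d, -0.86 and -1.0 for Bin1, and -0.62 and -0.78 for Abi3. These values are close to those with all cells, and the part of ribosomal share was not tested. At equal depth, with cells thinned to 1000 UMIs, the log2 ratios were -1.84 and -1.34 for Cd33, -0.61 and -0.76 for Bin1, and -0.86 and -0.36 for Abi3.

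Along the share of Cst7 among Cst7 and P2ry12 UMIs, in cells with at least 5 such UMIs, Cd33 stepped down between low and high shares. From the lowest share (0 to 10%) to the highest (90 to 100%) Cd33 had 422, 339, 274, 133, 143 and 129 CPM in the photoconversion library. The same 6 bins held 344, 253, 255, 113, 124 and 103 CPM in the control library. The 3 values past a share of 50% had overlapping intervals in each library, and all lay below the 3 values at lower shares. Ms4a6d had 139 CPM in the lowest and 27.4 CPM in the highest bin of the photoconversion library, and 163 and 41.5 CPM in the control library. Bin1 had 439 and 194 CPM in these end bins of the photoconversion library, and 525 and 203 CPM in the control library. Abi3 had 532 and 254 CPM in the photoconversion library, and 505 and 244 CPM in the control library. The bin of 30 to 50% held 14 cells in the photoconversion library and 21 in the control library, so its values carry little weight. Picalm stayed between 81.8 and 165 CPM in the photoconversion library and between 118 and 169 CPM in the control library, without an order along the bins.

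**Figure D4:**
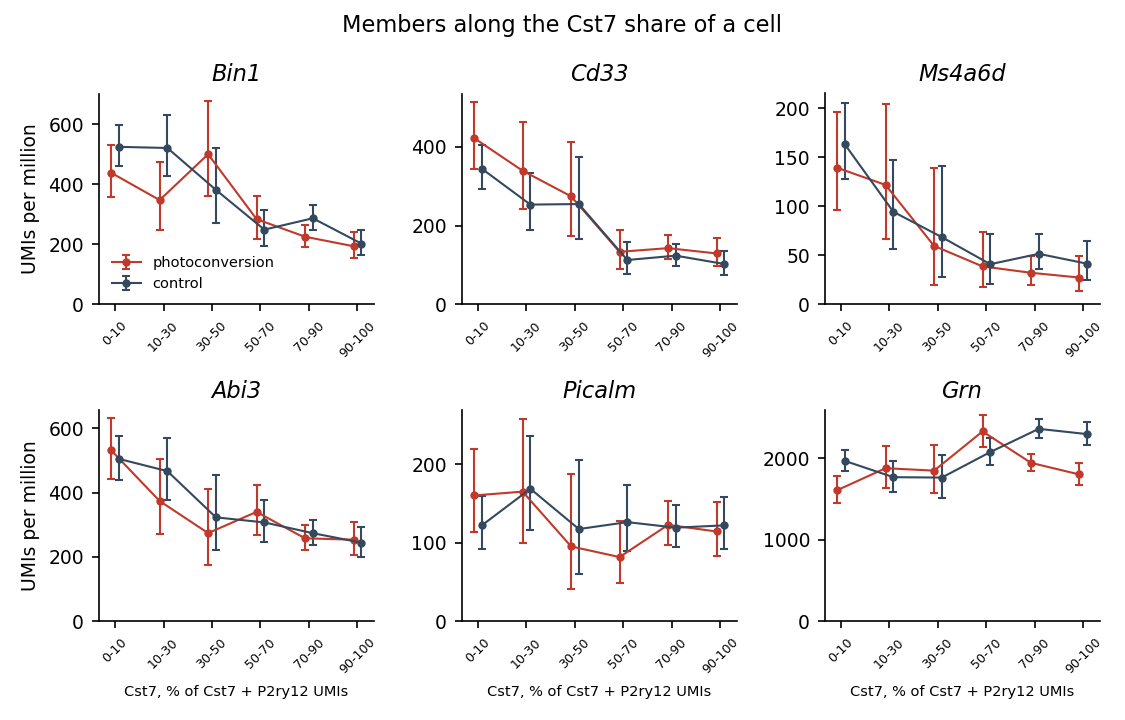
CPM against the Cst7 share of Cst7 and P2ry12 UMIs (percent, 6 bins from low to high) in each library, with exact 95% Poisson intervals. Cd33, Ms4a6d, Bin1 and Abi3 have lower values in the 3 bins above 50% than in the bin of 0 to 10%.

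Detection per cell was compared at equal depth, with each cell thinned to 1000 UMIs. This kept 142 of 157 Cst7-dominant and 119 of 133 P2ry12-dominant cells in the photoconversion library, and 183 of 207 and 232 of 290 in the control library. A Cd33 UMI was present in 11.3% (6.58 to 17.7) of Cst7-dominant against 29.4% (21.4 to 38.5) of P2ry12-dominant cells in the photoconversion library. The shares were 10.9% (6.80 to 16.4) against 26.7% (21.1 to 32.9) in the control library, so the groups' Clopper-Pearson intervals did not overlap in either library. Unthinned, 0 of 19 cells whose markers were mostly non-microglial had a Cd33 UMI in the photoconversion library, which allows a share of cells with a UMI of up to 15.8% (3 counts over 19 cells), and 1 of 22 had one in the control library. Those cells had median depths of 835 UMIs in the photoconversion library and 673.5 UMIs in the control library, so they set only a loose background. An Ms4a6d UMI was present in 2.11% of Cst7-dominant against 16.8% of P2ry12-dominant cells in the photoconversion library, and in 1.64% against 16.4% in the control library. The Cst7-dominant values are 3 cells in each library, and the background cells held no Ms4a6d UMI in either. Bin1 was present in 19.0% against 26.1% in the photoconversion library and in 23.5% against 35.8% in the control library. Abi3 was present in 16.2% against 29.4% in the photoconversion library and in 29.0% against 32.3% in the control library. For both Bin1 and Abi3 the intervals of the states overlapped in each library. Grn was present in 73.2% against 73.1% in the photoconversion library and in 74.3% against 79.3% in the control library. A thinned cell held on average 1.38 of the 9 genes in Cst7-dominant against 1.94 in P2ry12-dominant cells of the photoconversion library, and 1.49 against 2.09 in the control library. Barcodes under 200 genes, taken as a measure of free RNA, gave 145 CPM of Cd33 (18 UMIs, 86.0 to 229) in the photoconversion library and 191 CPM (28 UMIs, 127 to 276) in the control library. Ms4a6d had 48.4 CPM (6 UMIs, 17.7 to 105) and 68.1 CPM (10 UMIs, 32.7 to 125) in those barcodes. By point value the CPM of both genes was lower than this in Cst7-dominant cells and higher in P2ry12-dominant cells of each library. For Ms4a6d the barcode intervals overlapped those of both states in each library. For Cd33 they overlapped those of Cst7-dominant cells in the photoconversion library and of P2ry12-dominant cells in the control library. The part of free RNA in these values was not tested. Bin1, too, was lower in Cst7-dominant cells than in those barcodes by point value. The barcodes held 363 CPM (45 UMIs, 265 to 485) in the photoconversion library and 361 CPM (53 UMIs, 270 to 472) in the control library. In the control library this interval overlapped that of Cst7-dominant cells.

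**Figure D5:**
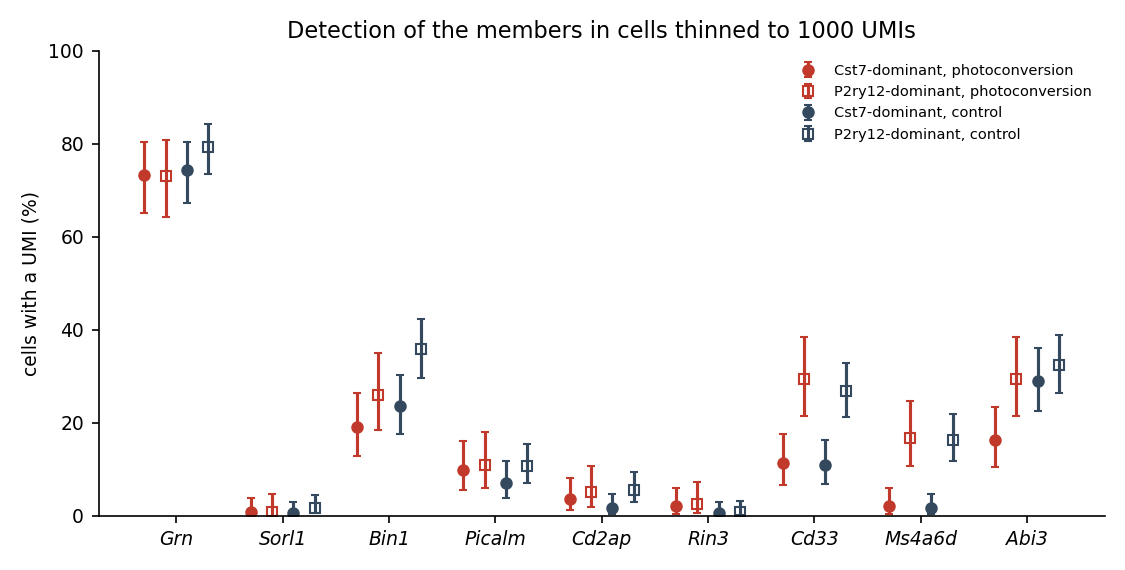
Percent of cells with at least 1 UMI of each gene after thinning every cell to 1000 UMIs, Cst7-dominant cells left of P2ry12-dominant cells in each library, with exact 95% binomial intervals. Cd33 and Ms4a6d are found in fewer Cst7-dominant cells in both libraries, while Grn is found in over 70% of cells in both states.

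Between the libraries, most of the 9 genes had ratios within 1.5-fold. Of the 7 with at least 100 UMIs over both libraries, 1 was past 1.5-fold, where 4.96% of 4009 genes were, and the median log2 ratio was -0.09 for the 7 genes and -0.06 for all 4009. That gene was Cd2ap, with 49.6 CPM (90 UMIs) in the photoconversion library and 32.6 CPM (79 UMIs) in the control library, a ratio of 1.52 (1.11 to 2.08). Its log2 ratio was 0.60 by summed UMIs but -0.02 after thinning and -0.20 with every cell weighted equally, and 10 cells held 41.1% of its UMIs in the photoconversion library. Grn gave a ratio of 0.902 (0.863 to 0.942), Bin1 0.843 (0.752 to 0.945) and Ms4a6d 0.739 (0.575 to 0.945), so their intervals lay below 1. Cd33 (1.13, 0.982 to 1.30), Picalm (0.982, 0.822 to 1.17) and Abi3 (0.938, 0.840 to 1.05) had intervals that include 1, as did Rin3 (0.717 to 2.16) and Sorl1 (0.667, 0.349 to 1.23). Cst7-dominant cells were a larger share of the photoconversion library (49.5%) than of the control library (37.3%), so these ratios mix level and cell makeup. The border macrophage and monocyte markers given above were also lower in the photoconversion library. In the control library 146 of 199 monocyte marker UMIs lay in the 58 cells with equal Cst7 and P2ry12 counts. Those cells held 20 of 295 border macrophage marker UMIs and 8 of 186 Ms4a6d UMIs. In the photoconversion library such cells held 2 of 32 monocyte marker UMIs and 7 of 103 Ms4a6d UMIs. The part of either marker list in the Ms4a6d ratio was not tested.

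Within Cst7-dominant cells, 1 of 6 countable genes was past 1.5-fold between libraries, where 3.59% of 2615 genes were. It was Ms4a6d, at 29.0 CPM in the photoconversion library and 47.0 CPM in the control library (0.617, 0.404 to 0.929), and its log2 ratio of -0.70 kept its sign in 12 of 13 alternatives and stayed past 1.5-fold in 11. The exception in sign was thinning, which gave 0.37 from 3 UMIs in each library. Cd33 had 139 CPM in the photoconversion library and 108 CPM in the control library (1.28, 1.03 to 1.60). Its log2 ratio was -0.13 after thinning, from 41 UMIs, and 0.60 without the deepest 5% of cells. Cd2ap, below the minimum, had 58 and 33 UMIs in photoconversion and control cells, a ratio of 1.97 (1.26 to 3.12). Within P2ry12-dominant cells 0 of 6 genes were past 1.5-fold, where 6.56% of 1646 genes were. There Cd33 had 374 CPM in the photoconversion library and 303 CPM in the control library (1.23, 1.01 to 1.5), and Grn had 1690 and 1882 CPM (0.898, 0.823 to 0.979). Cd33 was thus higher in the photoconversion library in both states by CPM, and its ratio over all kept cells was smaller than in either state.

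Partner genes were read from lists put together with earlier results of these data known. Of 69 other orthologs of Alzheimer risk genes, 68 were matched and 19 were countable between states in both libraries. Of these 19, 3 were higher and 7 lower in Cst7-dominant cells of both, where 10.3% and 18% of all genes were. Apoe, the lipid carrier with the strongest common risk allele in humans, was 4.81-fold higher in the photoconversion library and 4.03-fold higher in the control library. Ctsb, a lysosomal protease, was 1.74-fold higher in the photoconversion library and 1.98-fold higher in the control library. Maf, a macrophage transcription factor, gave ratios of 0.424 in the photoconversion library and 0.328 in the control library. The tetraspanin Tspan14 gave 0.376 and 0.565. None of the 32 such orthologs countable between the libraries over all kept cells was past 1.5-fold, where 4.96% of 4009 genes were.

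Around Cd33, 6 genes of Siglecs and their signalling were countable, and 3 were higher and 2 lower in both libraries, where 10.3% and 18% of all genes were. The adaptors Tyrobp (2.16-fold in the photoconversion library, 2.26-fold in the control library) and Hcst (3.53-fold and 2.30-fold) were higher in Cst7-dominant cells. The receptor Siglecf was 2.35-fold higher (1.33 to 4.46) in the photoconversion library, with 14 UMIs in P2ry12-dominant cells. In the control library it was 1.51-fold higher (0.979 to 2.38), an interval that includes 1. Siglech, a microglial lectin (0.616 and 0.528), and Inpp5d, a phosphatase recruited by inhibitory receptors (0.617 and 0.414), were lower. In the Ms4a family the paralogs of Ms4a6d were lower as well, with Ms4a6b at 0.160 in the photoconversion library and 0.106 in the control library and Ms4a6c at 0.330 and 0.419, but none was countable in the photoconversion library.

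For the endocytic genes, 0 of 13 countable clathrin and early endosome partners were higher and 2 were lower in both libraries, namely Fcho2 (0.511 and 0.446), which starts clathrin pits, and Dnm2 (0.544 and 0.585), which cuts them off. Over all genes 10.3% were higher and 18% lower in both libraries, so the clathrin count is near that background. The clathrin light chain Clta had ratios of 1.33 in the photoconversion library and 1.30 in the control library, and the actin-capping subunit Capzb had 1.16 and 1.07. Of 4 countable genes of the retromer and sorting receptor list, Lrp1, a large endocytic receptor (0.560 and 0.653), and the sorting nexin Snx6 (0.487 and 0.538) were lower in both libraries, 2 of 4 against 18% of all genes. For Abi3, 0 of 7 countable WAVE complex and Rac genes were past 1.5-fold higher or lower in both libraries, against 10.3% and 18% of all genes, with Rac1 at 1.01 and 0.978 and the subunit Brk1 at 0.969 and 0.948. For Grn, 2 of 8 countable lysosomal partners were higher in both libraries, against 10.3% of all genes, the protease Ctsd at 1.69-fold and 1.77-fold and Ctsb as above.

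For the 6 genes with enough UMIs, the gene with the nearest pattern over the 4 library and state levels was sought among 2027 genes, by the distance between centred log2 CPM. Camk2d, a calcium-dependent kinase, lay nearest Cd33 at 0.03, Fbxw2, an F-box protein, nearest Bin1 at 0.06, and Sparc, a secreted matrix protein, nearest Abi3 at 0.04. Evi2a lay nearest Picalm at 0.03, Sumo2, a protein modifier, nearest Grn at 0.04, and Tpst2, a tyrosine sulfotransferase, nearest Ms4a6d at 0.18. These 4 values share libraries and depth, so the distances are descriptions.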

How the data were processed

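Each library held 2000 barcodes as raw UMI counts per gene and barcode, deposited by the authors, made with Cell Ranger 3.0.2 per the file headers. The submitters' processing notes name bcl2fastq, Cell Ranger and mm10; other upstream steps are not given in the sources used here. The whole-series table (4000 barcode columns) was not used. From the counts, barcodes with at least 200 genes and at most 10% mitochondrial UMIs were kept, and 27 barcodes were shared by the libraries, none of them kept. Doublets were not removed. UMIs were summed per library and state (numpy 2.4.6, scipy 1.17.1, pandas 2.3.3) and divided by the summed total (CPM). Ratios carry exact conditional binomial, levels exact Poisson and shares Clopper-Pearson intervals (95%), which cover counting error only. With 1 library per group no count model was fitted. A gene was countable with 100 UMIs over both sides, and past the threshold at 1.5-fold. Ratios recovered known folds in simulated independent Poisson sums, which checks the calculation and not the spread between cells. TMM factors came from edgeR 4.0.16. All 9 genes are named. From each of 7 partner lists the counts are given, and by name at most the 2 members with most UMIs and 4 past 1.5-fold in both libraries. Members and lists were chosen with earlier results of these data known. Ankh, on 1 list, had no match.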

Additional observations from a re-analysis of the deposited data

How the results depend on the processing

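No paired analysis was possible because each group is 1 library. The 9 genes were recomputed under 16 alternatives, of which the one without Malat1-poor cells was chosen after seeing the data. In the state comparison Cd33 and Ms4a6d kept a ratio past 1.5-fold lower in 13 of 13 alternatives that change the values, in both libraries, Bin1 in 10 of 13 in the photoconversion library and 12 of 13 in the control library, and Abi3 in 9 of 13 in each. The count of genes past 1.5-fold between states was 3 of 5 countable genes in the photoconversion library. It was 0 when cells were thinned to 1000 UMIs, where only 1 gene stayed countable. It was 1 of 5 with cells weighted equally, by TMM and by median-of-ratios scaling. With states taken from marker lists it was 5 of 6, at a minimum of 50 UMIs 5 of 7, and with 1 UMI on each side 6 of 9. The median log2 ratio there, -0.67, was -0.091 thinned (1 gene), -0.37 with equal weights, -0.32 by TMM and -0.32 by median-of-ratios. In the control library the count of 4 of 6, all lower, was 2 of 4 thinned and 3 of 6 with equal weights, all lower too. By median-of-ratios it was 3 of 6, of which 2 were lower, and by TMM it was 4 of 6, of which 3 were lower. Grn was the gene past 1.5-fold higher in both of these scalings. The count was 5 of 7 at a minimum of 50 UMIs and 5 of 9 with 1 UMI on each side. Shares over all genes were computed by CPM and by TMM, as given above, and not for the other alternatives. The median of -0.84 was -0.56 thinned, -0.56 with equal weights, -0.47 by TMM and -0.45 by median-of-ratios. The log2 ratio of Grn between states turned to -0.091 thinned and -0.32 with equal weights in the photoconversion library, and to -0.10 and -0.19 in the control library.

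Between libraries the count over all kept cells, 1 of 7, was 0 of 4 thinned. It was 0 of 7 with no mitochondrial maximum, with equal weights and without the deepest 5% of cells, and 2 of 7 at a lower fold threshold. The log2 ratio of Cd2ap turned to -0.020 thinned and -0.20 with equal weights. Without the 10 richest cells the count stayed 1, but Cd2ap was at 0.37 and Ms4a6d, at -0.65, was the gene past 1.5-fold. In Cst7-dominant cells the count of 1 of 6 was 0 of 1 thinned. It was 0 of 5 with a 5% mitochondrial maximum, without the 10 richest cells and without Malat1-poor cells. It was 2 of 7 at 50 UMIs, 2 of 9 at 1 UMI on each side and 2 of 6 at that lower threshold. Ms4a6d, with 38 and 69 UMIs in photoconversion and control cells, had the fewest UMIs of the 6. Its ratio, countable or not, stayed past 1.5-fold in 11 of 13 alternatives. Without the deepest 5% of cells the count stayed 1, now of 5, but the gene was Cd33, higher in the photoconversion library at a log2 ratio of 0.60. In Cst7-dominant cells the thinned log2 ratio was -0.13 for Cd33 and 0.37 for Ms4a6d. In P2ry12-dominant cells the count of 0 was 2 with 1 UMI on each side. Beyond these numbers of countable genes, why the values changed was not tested. Depth limits Sorl1, Rin3 and Cd2ap, which had 17 to 90 UMIs per library.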

Other observations

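Barcodes with under 200 detected genes numbered 1608 in the photoconversion library and 1340 in the control library and entered no comparison. Grn, which encodes progranulin, had 1378 CPM in them in the photoconversion library and 1608 CPM in the control library. Bin1, the membrane-bending adaptor, had 363 and 361 CPM and Abi3 had 218 and 327 CPM. Cd2ap, the endocytic linker, had no UMI in these barcodes of the photoconversion library, which allows up to 29.7 CPM. In those of the control library it had 47.7 CPM (7 UMIs, 19.2 to 98.2), so the intervals overlap.

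Cells with equal Cst7 and P2ry12 counts, 27 in the photoconversion library and 58 in the control library, were shallow, with medians of 707 and 766.5 UMIs. In them Bin1 had 284 CPM in the photoconversion library and 182 CPM in the control library, from 11 and 21 UMIs. Grn had 1419 CPM in the photoconversion library and 1005 CPM in the control library, from 55 and 116 UMIs.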
